A study of Mus musculus with 12 samples.

Results

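The 10 genes described here, H2-K1, H2-D1, H2-T23, B2m, Tap1, Tap2, Tapbp, Psmb8, Psmb9 and Psmb10, encode the MHC class I molecules of the mouse and the proteins that cut, transport and load their peptides. They were taken by name, through the RefSeq accession of each array probe, from the 19319 genes and transcripts that could be tested. The cells were BV-2, a single immortalised mouse line derived from microglia, which are the macrophages of the brain. The groups were cells given 100 ng/ml lipopolysaccharide (LPS, a cell wall component of bacteria that activates Toll-like receptor 4) together with 20 µM curcumin (a polyphenol of turmeric), cells given LPS alone, cells given curcumin alone, and cells left untreated. Exposure lasted 6 h in the treated groups, and the labels name no vehicle and no time for the untreated cells. Each group had 3 single-colour Agilent arrays. The labels call them replicates without saying that they came from separate cultures, so p-values measure the spread between these arrays, which may be technical.

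MHC class I molecules display short peptides from inside the cell to CD8 T cells. The proteasome cuts proteins into peptides, the TAP transporter carries the peptides into the endoplasmic reticulum, and tapasin helps to load them onto a heavy chain paired with beta-2 microglobulin. Interferons raise the transcription of these genes in most cell types, and activated microglia are known to carry more MHC class I on their surface. Under interferon the catalytic subunits Psmb8, Psmb9 and Psmb10 replace Psmb5, Psmb6 and Psmb7 in newly built proteasomes, which are then called immunoproteasomes.

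The members were represented by 16 probes, all well above background on all 12 arrays, and no spot was saturated. Levels are given as log2 of the processed signal over the array's 75th percentile, a scale on which 1 unit is a 2-fold difference and on which different genes cannot be ranked against each other. LPS+curcumin replicate 1 stood apart from its group. Its mean correlation was 0.982 with arrays of the LPS group and 0.949 with those of the curcumin group. For LPS+curcumin replicate 2 these means were 0.939 and 0.984, and for replicate 3 they were 0.922 and 0.985. The 75th percentile also moved with treatment when set against the 7 spike-in probes. It averaged -2.08 ± 0.645 in LPS+curcumin, -1.37 ± 0.138 in LPS, -2.22 ± 0.153 in curcumin and -1.13 ± 0.161 in untreated cells (log2 units, SD, n = 3 each). Differences between cells with and without curcumin therefore depend on the scaling, and their direction is given below on 5 scalings. The array position on the slide was the same for a group on all 3 slides, so group and position cannot be told apart.

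The region between Tap1 and Psmb9 is shown because these members are neighbours that start in opposite directions from a shared stretch, and their levels are compared within arrays further on. The promoter windows of RefSeq (build GRCm38.p6) cover 250 bases before and 50 bases after each start and exist for 9 of the 10 members, all but Tap2. The Tap1 window lies at chr17:34187306-34187605 on the plus strand and the Psmb9 window at chr17:34187281-34187580 on the minus strand. They share 275 bases, and 225 bases separate the start sites. Capitals mark those 225 bases, of which 61.3% are G or C, against a median of 52.7% over whole windows of all genes.
Tap1 window, plus strand: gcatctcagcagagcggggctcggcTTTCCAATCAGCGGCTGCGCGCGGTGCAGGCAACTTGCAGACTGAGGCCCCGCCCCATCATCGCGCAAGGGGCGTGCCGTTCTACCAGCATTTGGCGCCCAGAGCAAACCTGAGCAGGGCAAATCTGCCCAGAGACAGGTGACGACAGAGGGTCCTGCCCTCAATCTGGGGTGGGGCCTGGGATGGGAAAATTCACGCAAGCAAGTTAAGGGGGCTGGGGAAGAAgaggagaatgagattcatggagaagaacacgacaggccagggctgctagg

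Short stretches of 5 other members are shown because they hold letters known to be bound by interferon-activated factors or NF-kB. Windows were searched on both strands for GAAA, any 2 bases and GAAA again (the core of the interferon-stimulated response element), for TTCNNNGAA (the core of the gamma-interferon activation site) and for GGGGA followed directly by TTCCC (an NF-kB site). The last was chosen after a looser form had matched too many windows to be of use. Of 32851 windows of all genes, 3.44% hold the first, 8.3% the second and 0.107% the third. The first was found in B2m and H2-T23, the second in Psmb8, and the third in H2-K1 and H2-D1, while the windows of Tap1, Psmb9, Psmb10 and Tapbp held none of them. Each line gives 15 bases on either side of the match, which is in capitals.
B2m, chr2:122147533-122147572, plus strand: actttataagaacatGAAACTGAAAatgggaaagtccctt
H2-D1, chr17:35262908-35262947, plus strand: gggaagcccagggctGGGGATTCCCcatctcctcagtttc
H2-K1, chr17:34000434-34000473, minus strand: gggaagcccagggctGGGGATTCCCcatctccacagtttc
H2-T23, chr17:36032801-36032840, minus strand: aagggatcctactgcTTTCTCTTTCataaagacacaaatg
Psmb8, chr17:34198083-34198121, plus strand: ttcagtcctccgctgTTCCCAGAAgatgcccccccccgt
The matches are descriptions of letters and were not tested for binding. A window without a match may hold a form of these elements with other letters, which was not searched for. The third motif was chosen after a first search of the windows, so its share is no measure of enrichment in the members. The H2-K1 and H2-D1 lines are nearly the same, as is usual for these duplicated genes, and signal from 1 class I heavy chain gene may reach a probe of another. Values of H2-K1, H2-D1, H2-T23 and the H2-Q and H2-T genes named below are uncertain in that respect.

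**Figure D1:**
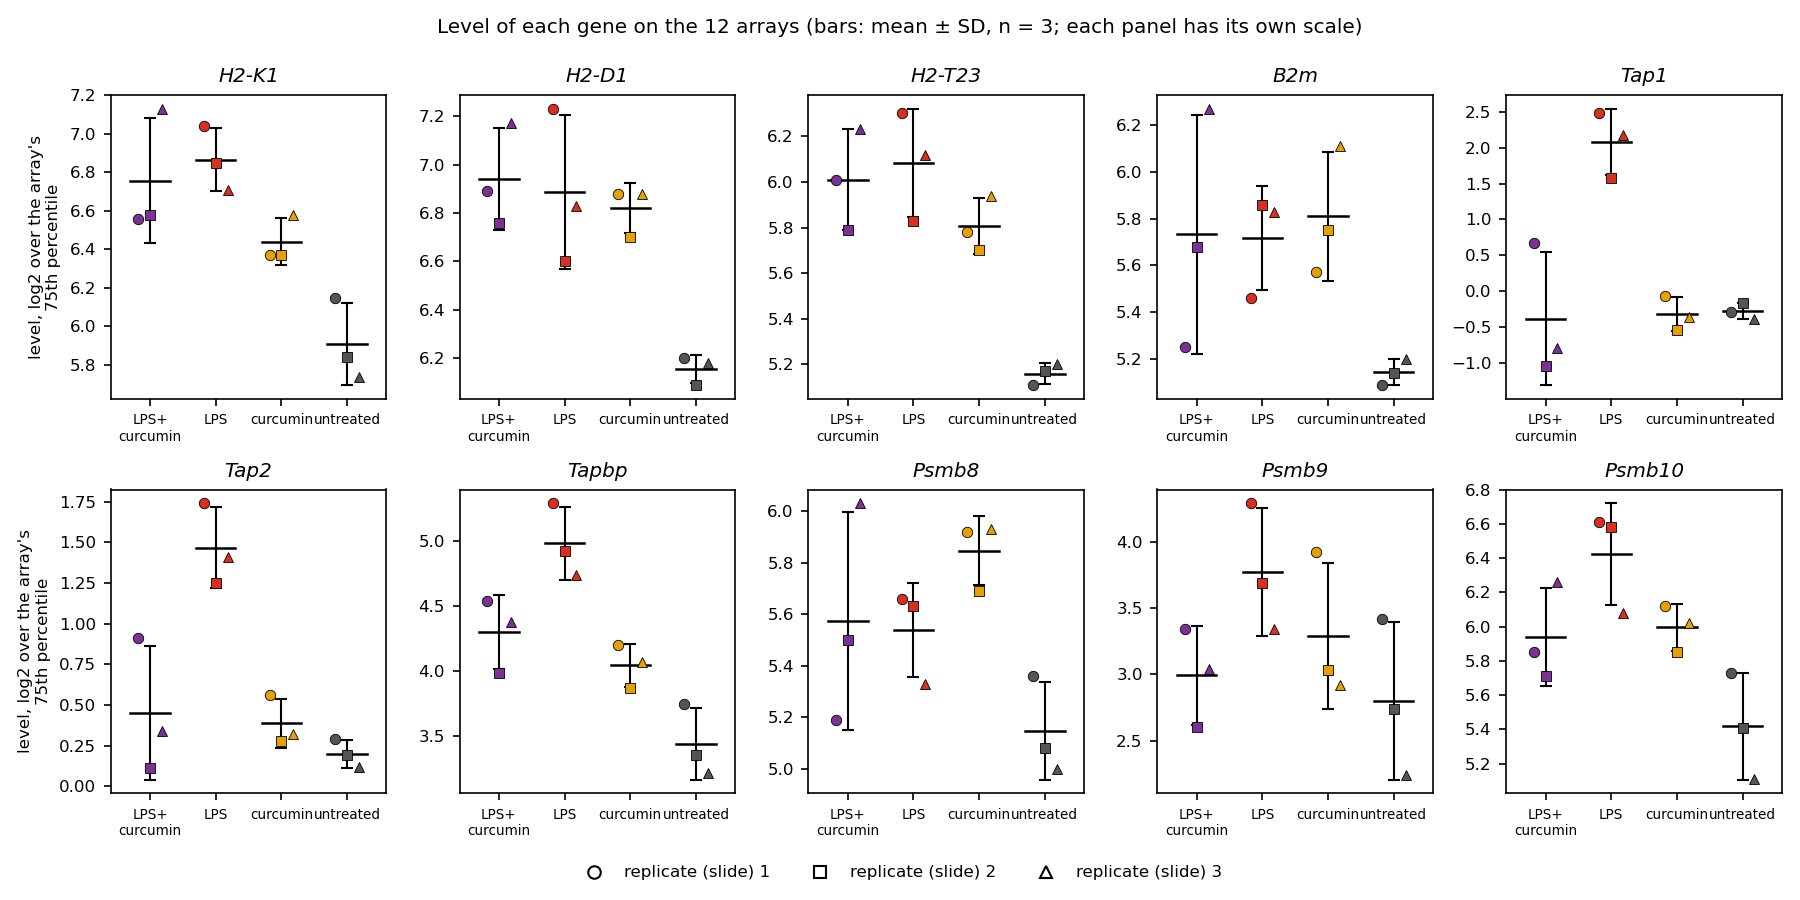
Level of each member on the 12 arrays, as log2 over the array's 75th percentile, with LPS+curcumin, LPS, curcumin and untreated cells from left to right. Points are arrays, shaped by replicate, and bars give mean ± SD (n = 3). The 3 LPS arrays of Tap1, Tap2 and Tapbp lie above every array of the other groups.

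With LPS alone, all 10 members had higher mean levels than in untreated cells, and 6 of them passed the test: the heavy chains H2-K1 and H2-T23, both chains of the peptide transporter, Tap1 and Tap2, the loading chaperone Tapbp, and the proteasome subunit Psmb10. Tap1 rose most, by 2.35 ± 0.40 log2 units (SE, 3 arrays a group), which is 5.11-fold (limma adjusted p = 0.00436). Over all genes tested 4.12% were called higher and 1.61% lower in this comparison, where 6 members were called higher and 0 lower. The median difference was 0.96 over the members and 0.01 over all genes.

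Among the heavy chains, H2-K1, a classical class I gene, measured 7.04, 6.85 and 6.71 in LPS cells (replicates 1 to 3), against 6.15, 5.84 and 5.74 in untreated cells. The groups did not overlap, and H2-K1 rose by 0.96 ± 0.21 (adjusted p = 0.0206). H2-T23 encodes Qa-1, a nonclassical molecule that presents leader peptides of other class I chains. It stood at 6.30, 5.83 and 6.12 in LPS cells and 5.11, 5.17 and 5.20 in untreated cells, and rose by 0.92 ± 0.19 (adjusted p = 0.0142). H2-D1, the other classical gene among the members, measured 7.23, 6.60 and 6.83 with LPS and 6.20, 6.09 and 6.18 without. Its groups did not overlap either, but the difference of 0.73 ± 0.20 missed the threshold (adjusted p = 0.0597). With slide as a block it was called (adjusted p = 0.0339). B2m encodes the light chain shared by all of them and measured 5.46, 5.86 and 5.83 with LPS against 5.09, 5.14 and 5.20 without. The separation was small, 0.57 ± 0.26, and was not called (adjusted p = 0.325).

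The transporter genes and Tapbp had the largest differences among the members with LPS, a contrast between genes that was not tested. Tap1 measured 2.48, 1.58 and 2.18 in LPS cells and -0.28, -0.16 and -0.38 in untreated cells, processed signals of 3878, 2392 and 3889 against 754, 878 and 728. Every LPS array lay far above every untreated array. Tap2, the other chain of the transporter, measured 1.74, 1.25 and 1.41 with LPS and 0.29, 0.19 and 0.12 without. It rose by 1.27 ± 0.23 (adjusted p = 0.00646). Tapbp, which encodes tapasin, measured 5.29, 4.92 and 4.74 with LPS and 3.75, 3.36 and 3.22 without. Its rise of 1.54 ± 0.23 (2.91-fold, adjusted p = 0.00189) had the smallest adjusted p among the members, and on the 3 slides the difference was 1.54, 1.56 and 1.52.

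The inducible proteasome subunits were less uniform. Psmb10, the trypsin-like subunit, measured 6.61, 6.58 and 6.08 in LPS cells and 5.73, 5.41 and 5.11 in untreated cells and rose by 1.01 ± 0.23 (adjusted p = 0.0289). Psmb9 measured 4.29, 3.69 and 3.34 with LPS and 3.42, 2.74 and 2.24 without. These groups overlapped, levels on slide 1 were the highest in both, and the difference of 0.97 ± 0.38 was not called (adjusted p = 0.218). Within the slides Psmb9 was 0.87, 0.95 and 1.09 higher with LPS, and with slide as a block the same difference passed the test (adjusted p = 0.0214). Psmb8, the chymotrypsin-like subunit, differed least, by 0.39 ± 0.23 (adjusted p = 0.515), with 5.66, 5.63 and 5.33 in LPS cells overlapping 5.36, 5.08 and 5.0 in untreated cells. In all, 8 of the 10 members had every LPS array above every untreated array, against 16.8% of all genes. Tap1, Tap2 and Tapbp were called in each of the 12 fits that left out 1 array. The number of members called fell to 3 without LPS replicate 1, untreated replicate 2 or untreated replicate 3, and to 4 without LPS replicate 2. The share of all genes called higher fell as well, from 4.12% to 2.45%, 2.48%, 2.64% and 2.85% in these fits.

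With curcumin alone, 9 of the 10 members had higher levels than in untreated cells on the 75th percentile scale, but so did much of the array. Of these, 3 members passed the test. H2-D1 was higher by 0.66 ± 0.20 (adjusted p = 0.0314), H2-T23 by 0.65 ± 0.19 (adjusted p = 0.0278) and Psmb8 by 0.70 ± 0.23 (adjusted p = 0.0421). The share of all genes called higher was 21.8%, near the members' 3 of 10, and 7.3% were called lower. The median difference was 0.59 over the members and 0.41 over all genes, and 7 members had every curcumin array above every untreated array, against 47.4% of all genes. No member was called when any 1 untreated or curcumin array was left out. Without LPS+curcumin replicate 1 the number called was 6, and without LPS+curcumin replicate 3 it was 7. The share of all genes called higher rose as well, to 36.9% and 36.3%.

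Tap1 did not pass the test with curcumin alone, with -0.06, -0.53 and -0.36 in curcumin cells and -0.28, -0.16 and -0.38 in untreated cells. The groups overlapped and differed by -0.05 ± 0.40 (adjusted p = 0.932). Tap2 measured 0.56, 0.28 and 0.32 with curcumin against 0.29, 0.19 and 0.12 without, a difference of 0.19 ± 0.23 (adjusted p = 0.521). Psmb9 differed by 0.49 ± 0.38 (adjusted p = 0.311), again with overlapping groups. The remaining 4, H2-K1, B2m, Tapbp and Psmb10, lay 0.53 to 0.67 higher with curcumin, without overlap between the groups, at adjusted p between 0.0659 and 0.0782. With slide as a block, B2m (adjusted p = 0.0258) and Tapbp (adjusted p = 0.0223) were called, where 31.2% of all genes were called higher.

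Psmb8 and B2m had higher mean levels in curcumin than in LPS cells on the 75th percentile scale, a contrast that was not tested. The means were 5.85 against 5.54 for Psmb8 and 5.81 against 5.71 for B2m. For both genes this order depended on the scaling. On quantile, median and spike-in scaling Psmb8 differed from untreated cells by 0.16, -0.14 and -0.38 with curcumin. With LPS the values were 0.27, 0.24 and 0.15. For B2m they were 0.13, -0.17 and -0.42 with curcumin, and 0.45, 0.42 and 0.33 with LPS. Psmb8 measured 5.92, 5.69 and 5.93 in curcumin cells. Its rise over untreated cells was read by 2 probes, with 0.70 ± 0.23 and 0.74 ± 0.24.

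Adding curcumin to LPS was followed by lower levels of the peptide transporter. Tap1 fell by 2.46 ± 0.40 on the log2 scale relative to LPS alone (5.49-fold, limma adjusted p = 0.00351), and Tap2 by 1.02 ± 0.23 (2.02-fold, adjusted p = 0.0148). No other member passed the test. Of all genes 6.00% were called lower and 12.7% higher in this comparison, and the median was -0.30 over the members and 0.32 over all genes.

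Tap1 measured 0.68, -1.03 and -0.78 in LPS+curcumin cells, against 2.48, 1.58 and 2.18 in LPS cells. Replicate 1, the array that stood apart, was the highest of the LPS+curcumin arrays and still below every LPS array. Tap2 measured 0.91, 0.11 and 0.34 with both agents, against 1.74, 1.25 and 1.41 with LPS alone, again without overlap. Without LPS+curcumin replicate 1 the differences were -2.98 for Tap1 (adjusted p = 7.85e-06) and -1.24 for Tap2 (adjusted p = 0.000493). The call of Tap2 was lost without LPS replicate 1 (-0.88, adjusted p = 0.0599) and without LPS+curcumin replicate 2 (-0.84, adjusted p = 0.0688). Neither gene was called when all 4 arrays of replicate 2 or of replicate 3 were left out.

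Tapbp measured 4.54, 3.99 and 4.38 in LPS+curcumin cells, against 5.29, 4.92 and 4.74 in LPS cells. Its groups did not overlap, and the difference of -0.68 ± 0.23 missed the threshold (adjusted p = 0.0593). It passed with slide as a block (adjusted p = 0.0197) and without LPS+curcumin replicate 1 (-0.80, adjusted p = 0.0158). Tap1, Tap2 and Tapbp were the 3 members with all LPS+curcumin arrays below all LPS arrays, against 9.31% of all genes. Without that replicate these 3 were called lower, beside 14.7% of all genes.

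The inducible subunits with the lower values were Psmb9 and Psmb10. Psmb9 measured 3.34, 2.60 and 3.04 with both agents and 4.29, 3.69 and 3.34 with LPS, which differed by -0.78 ± 0.38 (adjusted p = 0.155). It was lower on each slide, by -0.95, -1.10 and -0.30, and passed with slide as a block (adjusted p = 0.0251). Psmb10 measured 5.85, 5.71 and 6.26 against 6.61, 6.58 and 6.08, a difference of -0.48 ± 0.23 (adjusted p = 0.154). On slide 3 it was 0.18 higher with both agents. The heavy chains, B2m and Psmb8 stayed near their LPS levels on this scale, with differences from -0.11 to 0.05 and adjusted p between 0.703 and 0.964.

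No member passed the test between LPS+curcumin cells and cells with curcumin alone. The differences ran from -0.30 for Psmb9 to 0.32 for H2-K1, with standard errors from 0.19 to 0.40 and adjusted p from 0.868 to 0.987. For Tap1 the difference was -0.06 ± 0.40, with 0.68, -1.03 and -0.78 in LPS+curcumin cells and -0.06, -0.53 and -0.36 in curcumin cells. Few genes at all were called here, 0.202% higher and 0.0104% lower. For the members limma called 0 of 10, and 0 had an unadjusted p under 0.05.

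**Figure D2:**
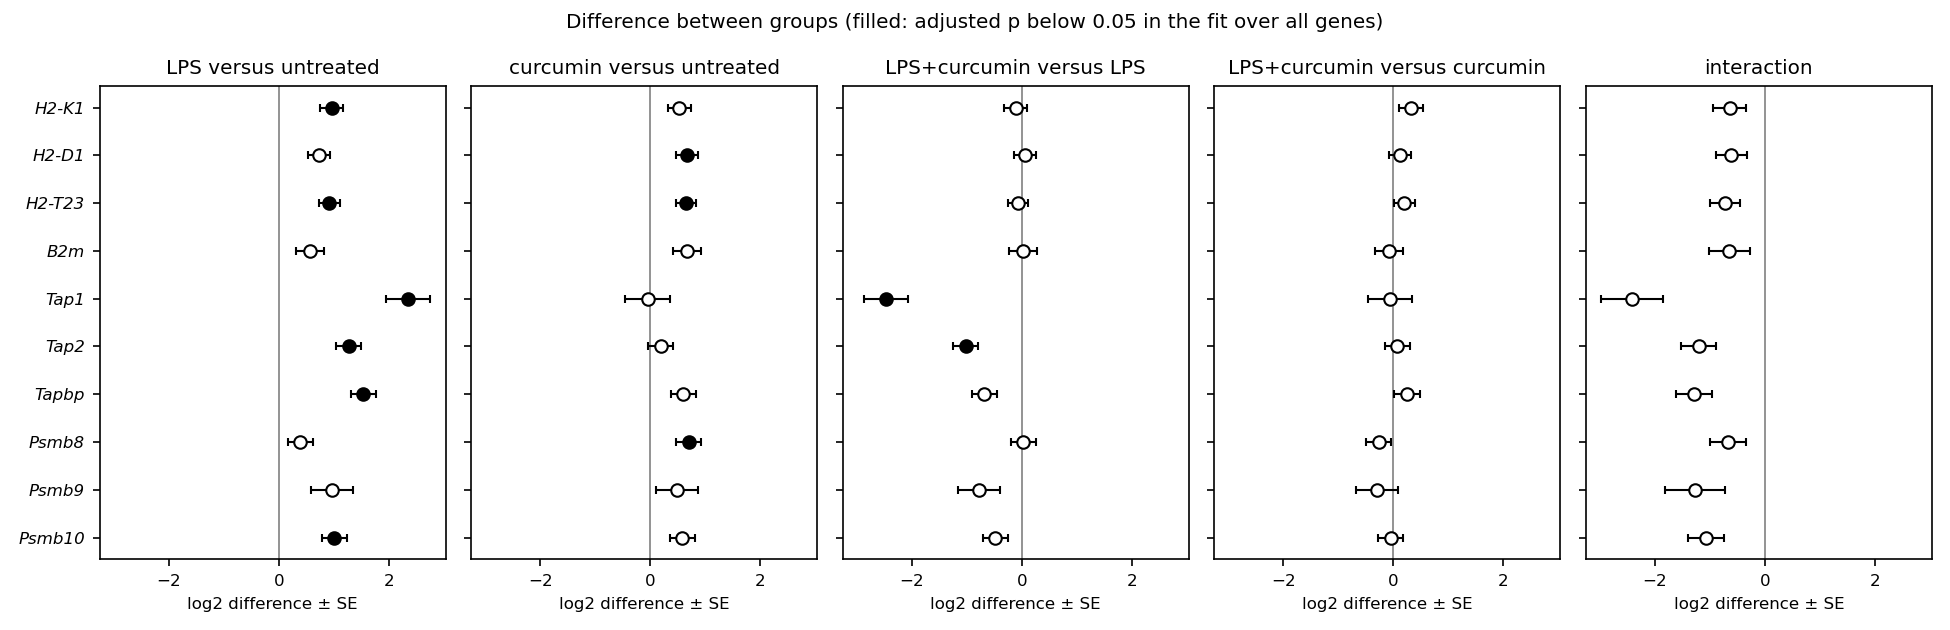
Differences between groups for the 10 members, on the log2 scale with their standard errors (n = 3 arrays per group), in the 5 comparisons. Filled points passed the test over all genes. Tap1 shows the widest swing, 2.35 with LPS and -2.46 when curcumin was added to LPS.

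The interaction asks whether the effect of curcumin differed with and without LPS. All 10 members had negative values, from -0.61 for H2-D1 to -2.41 for Tap1, with a median of -0.89 against -0.08 over all genes. None passed the test. Tap1 was at -2.41 ± 0.56 (adjusted p = 0.112), Tapbp at -1.29 ± 0.32 (adjusted p = 0.151), Tap2 at -1.20 ± 0.32 (adjusted p = 0.186) and Psmb10 at -1.07 ± 0.33 (adjusted p = 0.311). Of all genes 0.699% were called lower and 0.0207% higher. The outcome changed with 1 array: without LPS+curcumin replicate 1, Tap1 (-2.94, adjusted p = 0.000838) and Tap2 (-1.43, adjusted p = 0.0145) passed, beside 1.98% of all genes. With slide as a block, Tap1 and Tapbp passed, both at an adjusted p of 0.0434, beside 1.08% of all genes.

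The scaling of the arrays set the sign of the curcumin differences for most members. The 5 scalings used the 75th percentile, the 75th percentile of probes detected on every array, quantile normalization, the median and the spike-in probes. For LPS against untreated cells all 10 members were higher on all 5, and Tap1 ranged from 2.11 to 2.38, Tap2 from 1.03 to 1.27 and Tapbp from 1.30 to 1.54. The number called higher was 7 on the always-detected probes (4.10% of all genes), 5 on quantile (3.45%), 1 on median (2.28%) and 0 on spike-in scaling (1.93%), and 8 with slide as a block (5.24%). For curcumin against untreated cells, 3 were called higher on the always-detected probes (20.5% of all genes) and 0 on quantile (12.1%), median (8.20%) and spike-in scaling (7.42%), and 5 with slide as a block (31.2%). On median and spike-in scaling all 10 members were lower with curcumin, with medians of -0.25 and -0.49 against -0.42 and -0.67 over all genes, and none was called lower. Tap1 was below untreated cells on all 5 scalings, from -0.05 to -1.13, without a call.

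The lower Tap1 and Tap2 in LPS+curcumin than in LPS cells were called on all 5 scalings, from -2.46 to -3.19 for Tap1 and from -1.0 to -1.75 for Tap2. Tapbp was called lower on 4 scalings, Psmb10 on 3, and Psmb9 and H2-K1 on 1 each. Members called lower numbered 3 on the always-detected probes (5.99% of all genes), 5 on quantile (7.45%), 5 on median (16.2%) and 4 on spike-in scaling (12%), and 4 with slide as a block (8.74%). The differences of H2-D1, B2m and Psmb8 between these groups were 0.05, 0.02 and 0.03 on the 75th percentile scale and negative on quantile, median and spike-in scaling, and that of B2m was also -0.01 on the always-detected probes. The interaction was negative for all 10 members on all 5 scalings and was called for none.

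**Figure D3:**
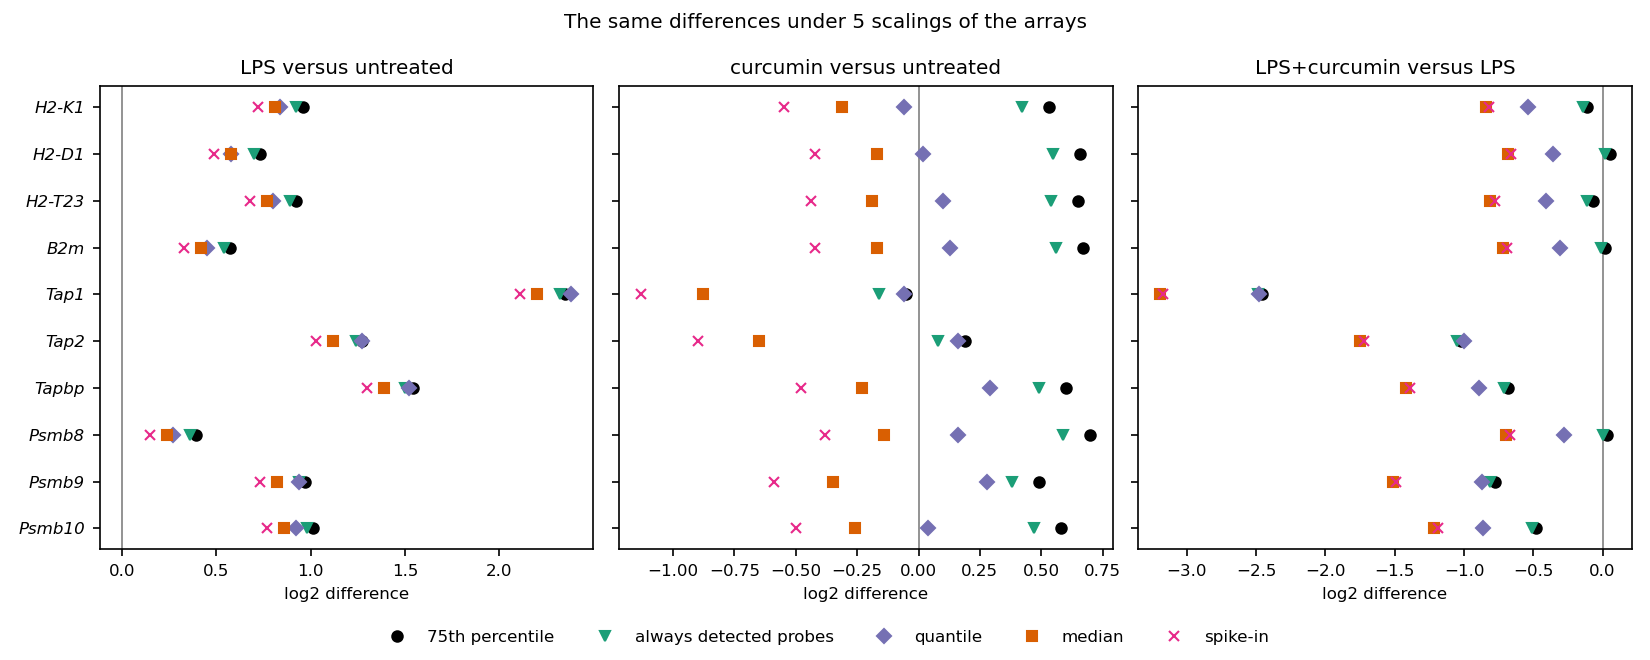
The differences of the 10 members on 5 scalings of the arrays, in log2 units, for LPS versus untreated, curcumin versus untreated and LPS+curcumin versus LPS. With curcumin alone the points straddle 0, while Tap1 and Tap2 lie below 0 on every scaling when curcumin was added to LPS.

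The ratio of an inducible subunit to the subunit it replaces, taken within an array, is the same under any scaling that uses 1 constant per array, which quantile normalization does not. Each agent's effect was averaged over cells with and without the other agent and tested by exact permutation within those strata (two-sided, 12 arrays, smallest possible p 0.005), with 6 tests adjusted together. Curcumin went with a lower Psmb9 to Psmb6 ratio, by -0.83 on the log2 scale and on 6 of 6 slide pairs (exact p = 0.01, adjusted 0.06). The Psmb10 to Psmb7 ratio was lower by -0.64, also on 6 of 6 pairs (exact p = 0.035, adjusted 0.0825), and the Psmb8 to Psmb5 ratio by -0.23 on 5 of 6 (exact p = 0.045, adjusted 0.0825). None passed after adjustment with all 12 arrays. Without untreated replicate 3 all 3 did (-0.93, -0.75 and -0.27, each with an adjusted exact p of 0.04). That array had the lowest untreated value of each ratio (-0.37, -0.45 and -0.18 relative to the untreated mean), so leaving it out makes the curcumin difference more negative. Without LPS+curcumin replicate 1 the differences were -0.99, -0.76 and -0.22 (exact p = 0.01, 0.03 and 0.08 before adjustment).

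The curcumin differences were more negative in cells that also had LPS. In them curcumin went with -1.26 for Psmb9 to Psmb6, -1.0 for Psmb10 to Psmb7 and -0.43 for Psmb8 to Psmb5, compared with -0.40, -0.28 and -0.03 in cells without LPS. That contrast between strata was not tested. Relative to the untreated mean, the Psmb9 to Psmb6 ratio stood at -0.06, -0.81 and -1.17 in LPS+curcumin cells, 0.79, 0.46 and 0.50 in LPS cells, 0.07, -0.45 and -0.82 in curcumin cells, and 0.24, 0.13 and -0.37 in untreated cells. The 3 LPS arrays were the highest of the 12. For Psmb10 to Psmb7 the order was similar, with 0.37, -0.29 and -0.42 in LPS+curcumin cells, 1.15, 0.98 and 0.53 in LPS cells, 0.05, -0.32 and -0.56 in curcumin cells, and 0.43, 0.02 and -0.45 in untreated cells. In each of those groups the array on slide 1 was the highest and the array on slide 3 the lowest.

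LPS itself went with a Psmb10 to Psmb7 ratio higher by 0.53 on 6 of 6 pairs (exact p = 0.055, adjusted 0.0825), 0.89 without curcumin and 0.16 with it. Without LPS+curcumin replicate 1 it was 0.41 (exact p = 0.14), with -0.08 in cells with curcumin. The effects on Psmb9 to Psmb6 (0.15, exact p = 0.57) and Psmb8 to Psmb5 (0.04, exact p = 0.705) had opposite signs in cells without and with curcumin, 0.58 and -0.28 for Psmb9 to Psmb6 and 0.24 and -0.17 for Psmb8 to Psmb5. The constitutive partners were not called with LPS: Psmb5 differed by 0.16 ± 0.23, Psmb6 by 0.39 ± 0.28 and Psmb7 by 0.12 ± 0.28 (adjusted p from 0.663 to 0.986). With curcumin alone they were higher by 0.73 to 0.89 (adjusted p from 0.0354 to 0.0405) on the 75th percentile scale, and lower by -0.36, -0.19 and -0.23 on spike-in scaling, without a call.

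**Figure D4:**
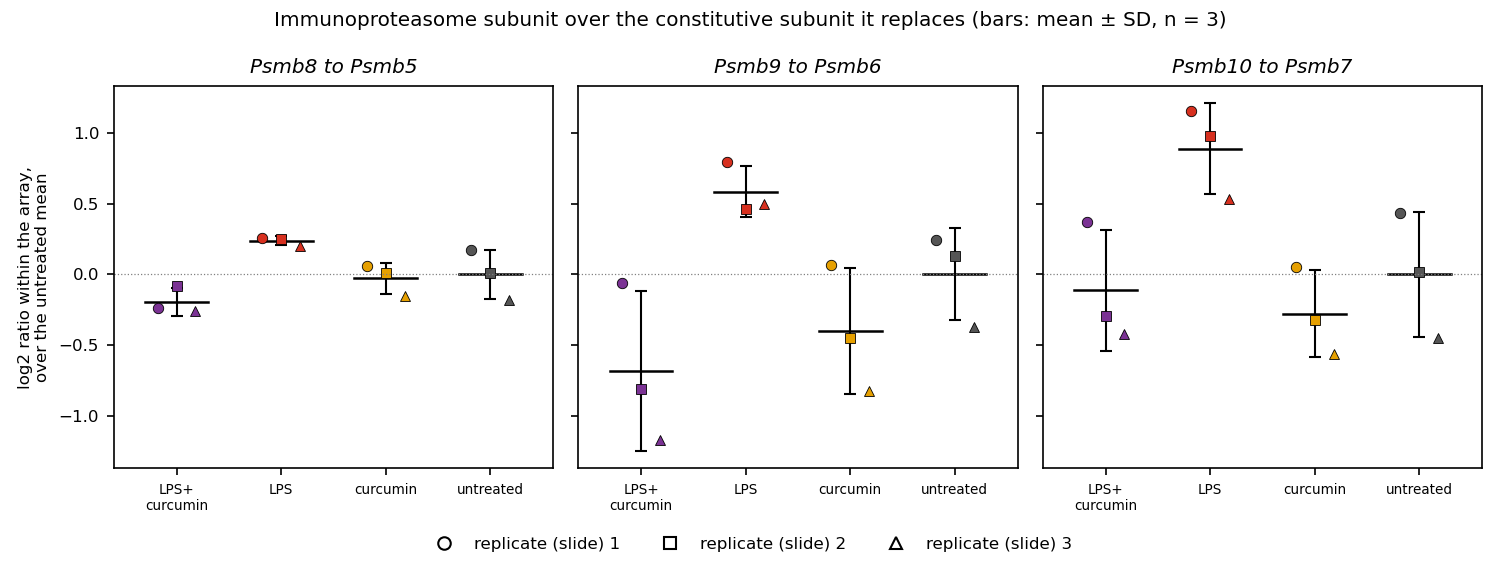
Log2 ratio of each inducible proteasome subunit to the constitutive subunit it replaces, within each array and relative to the untreated mean, for LPS+curcumin, LPS, curcumin and untreated cells. Bars give mean ± SD (n = 3). For Psmb9 to Psmb6 the LPS arrays lie between 0.46 and 0.79, above all other arrays.

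Tap1 and Psmb9, which share the stretch printed above, were also compared within arrays, as a description. The Tap1 minus Psmb9 level was -2.66, -3.63 and -3.82 in LPS+curcumin cells, -1.81, -2.11 and -1.16 in LPS cells, -3.98, -3.56 and -3.28 in curcumin cells, and -3.70, -2.90 and -2.62 in untreated cells. Its offset has no meaning, because the 2 probes differ, but the difference was highest on the 3 LPS arrays. Tap1 therefore moved more than Psmb9 with LPS on each of those arrays.

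Several members were read by more than 1 probe. The 3 probes of H2-K1 gave 0.95 to 1.02 for LPS against untreated cells, and the 2 of H2-D1 gave 0.73 and 0.74, the 2 of B2m 0.57 and 0.53, and the 2 of Psmb8 0.39 and 0.44. The 2 probes of Tapbp gave 1.54 and 1.23 for LPS against untreated cells and -0.68 and -0.44 for LPS+curcumin against LPS cells. Probes of a gene agreed in sign in both comparisons.

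Other heavy chains of the class I family were also called. Of 11 tested genes on a list of 16, 5 rose with LPS and 4 with curcumin alone. When curcumin was added to LPS, 2 fell. The shares of all genes called so were 4.12%, 21.8% and 6.00%. Cd1d1, Mr1, Hfe and Fcgrt had lower mean levels with LPS, without a call on the 75th percentile scale. Mr1 averaged -2.38 in untreated and -3.41 in LPS cells, without overlap. On the always-detected probes 1 gene of the list was called lower with LPS, beside 2.1% of all genes. H2-T24, a nonclassical gene of low signal, measured -1.63, -2.09 and -1.42 in LPS cells and -5.66, -5.87 and -5.50 in untreated cells, and rose by 3.97 ± 0.34 (adjusted p = 5.39e-05). In LPS+curcumin cells it stood at -4.90, -6.38 and -5.32, which is 3.82 ± 0.34 below LPS cells (adjusted p = 0.000252), and its interaction of -3.41 ± 0.48 was called (adjusted p = 0.00713). These were the calls on 5, 5 and 2 of the 5 scalings.

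H2-T22 (0.91 ± 0.17), H2-Q4 (0.98 ± 0.20) and H2-Q7 (0.83 ± 0.19) also rose with LPS, at adjusted p from 0.00955 to 0.0298. These calls were made on 3, 3 and 2 of the 5 scalings and in 10, 9 and 6 of the 12 fits that left out 1 array. With curcumin alone H2-Q2, H2-Q4, H2-Q7 and H2-T22 were called higher by 0.52 to 0.68 on the 75th percentile scale, and all 4 were lower on median and spike-in scaling. H2-M3, which presents formylated bacterial peptides, fell by 0.86 ± 0.22 when curcumin was added to LPS (adjusted p = 0.026), on all 5 scalings and in 8 of those 12 fits.

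Among 10 tested loading and trimming partners, 1 rose with LPS and 2 fell when curcumin was added, beside 4.12% and 6.00% of all genes. Tapbpl, a relative of tapasin that edits peptides, rose by 1.53 ± 0.37 with LPS (adjusted p = 0.0367) and fell by 1.31 ± 0.37 when curcumin was added (adjusted p = 0.0359). The first call was made on 2 of the 5 scalings and in 3 of the 12 fits that left out 1 array. The second was made on 5 scalings but in only 1 of those fits, the one without LPS+curcumin replicate 1 (-1.84, adjusted p = 5.53e-05), and elsewhere the adjusted p reached 0.142. Its levels were 1.15, -0.55 and -0.32 in LPS+curcumin cells, 1.77, 1.21 and 1.24 in LPS cells, -0.08, -0.29 and -0.31 in curcumin cells, and 0.01, -0.14 and -0.24 in untreated cells. As with Tap1, replicate 1 was the highest LPS+curcumin array. Lnpep, an aminopeptidase that trims peptides in endosomes, fell by 0.80 ± 0.22 with curcumin alone and by 0.76 ± 0.22 when it was added to LPS (adjusted p = 0.0229 and 0.0376), on all 5 scalings and in 8 and 3 of those 12 fits. Calr, the chaperone calreticulin, and Blmh, a cytosolic peptidase, rose by 0.75 each with curcumin alone (adjusted p = 0.040 and 0.0494, called in 5 and 2 of the 12 fits), and both were lower on median and spike-in scaling. Erap1, the trimming enzyme of the endoplasmic reticulum, was called in no comparison (0.40 ± 0.24 with LPS, adjusted p = 0.54, and -0.18 ± 0.24 when curcumin was added, adjusted p = 0.584).

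Of 10 activator and assembly genes and 14 constitutive core subunits, 0 were called with LPS and 0 when curcumin was added to LPS, with medians of 0.11 and 0.14, and 0.26 and 0.47. Without LPS+curcumin replicate 1, 3 of the 10 and 10 of the 14 were called higher when curcumin was added to LPS, beside 40.4% of all genes. With curcumin alone 3 of the 10 and 7 of the 14 were called higher on the 75th percentile scale, beside 21.8% of all genes. For the 14 core subunits that count was 8 on the always-detected probes, 1 on quantile and 0 on median and spike-in scaling, and 13 without LPS+curcumin replicate 1, beside 36.9% of all genes. For the 10 it was 1 on quantile and 0 on median and spike-in scaling. On spike-in scaling 5 of the 10 were called lower, beside 42.9% of all genes. Called higher were 20.5% of all genes on the always-detected probes, 12.1% on quantile, 8.2% on median and 7.42% on spike-in scaling. Among those called on the 75th percentile scale were Psmf1, a proteasome inhibitor (0.95 ± 0.23, adjusted p = 0.0164), the assembly factor Pomp (0.81 ± 0.28, adjusted p = 0.0489) and the core subunit Psmb2 (0.76 ± 0.23, adjusted p = 0.0334). On spike-in scaling all 3 were lower, by -0.14, -0.28 and -0.32, and their calls held in 9, 2 and 6 of the 12 fits that left out 1 array. Psme1 and Psme2 encode the interferon-inducible PA28 activator. With LPS they differed by 0.65 ± 0.27 (adjusted p = 0.255) and 0.78 ± 0.22 (adjusted p = 0.0654). With curcumin alone Psme2 was called higher, by 0.69 ± 0.22 (adjusted p = 0.0369), and Psme1, at 0.67 ± 0.27, was not (adjusted p = 0.0778). Added to LPS, curcumin went with -0.11 ± 0.27 for Psme1 and -0.12 ± 0.22 for Psme2, and neither was called.

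Among 14 tested transcription factors of the class I genes, 3 rose with LPS, 3 fell with curcumin alone and 4 fell when curcumin was added to LPS, beside 4.12%, 7.30% and 6.00% of all genes. Those called lower with curcumin alone numbered 8 on median scaling (25.2% of all genes), 10 on spike-in scaling (42.9%) and 6 without LPS+curcumin replicate 1 (12.6%). Nlrc5, the main activator of class I genes, has no probe named here. With LPS, Stat2 rose by 3.00 ± 0.61 (adjusted p = 0.0147), Irf1 by 2.81 ± 0.63 (0.0237) and Irf9 by 2.63 ± 0.60 (0.0262). All 3 transmit or amplify interferon signals. The rises of Stat2, Irf1 and Irf9 were called on 4, 3 and 3 of the 5 scalings and in 8, 7 and 6 of the 12 fits that left out 1 array. When curcumin was added to LPS, Stat2 fell by 2.40 ± 0.61 (adjusted p = 0.0238) and Irf9 by 2.20 ± 0.60 (adjusted p = 0.0298), both on all 5 scalings. Each was called in 7 of the 12 fits, where Stat2 ranged from -3.24 to -1.67 and Irf9 from -3.11 to -1.54.

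Irf1 measured 4.54, 2.55 and 1.91 in LPS+curcumin cells, 5.53, 4.47 and 4.34 in LPS cells, 1.92, 1.71 and 0.49 in curcumin cells, and 2.38, 1.99 and 1.54 in untreated cells. Its LPS+curcumin and LPS groups overlapped through replicate 1, and the difference of -1.78 ± 0.63 was not called (adjusted p = 0.0692). Without LPS+curcumin replicate 1 it was -2.55 (adjusted p = 0.00148). Irf8, a lineage factor of macrophages, was low wherever curcumin was present. It measured 2.82, 1.98 and 1.77 in LPS+curcumin cells and 2.78, 2.48 and 2.04 in curcumin cells, against 4.03, 4.15 and 4.19 in LPS cells and 4.16, 4.10 and 4.26 in untreated cells. The fall was 1.93 ± 0.28 with LPS present (adjusted p = 0.00218) and 1.74 ± 0.28 without it (adjusted p = 0.00212). Irf2 fell likewise, by 1.82 ± 0.31 and 1.55 ± 0.31 (adjusted p = 0.00462 and 0.00565), and Rfxap, a subunit of the RFX complex, fell by 0.67 ± 0.19 with curcumin alone (adjusted p = 0.0244). These falls of Irf8, Irf2 and Rfxap were called on all 5 scalings.

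The ubiquitin-like modifier system is another interferon-induced set. All 4 tested genes rose with LPS and all 4 fell when curcumin was added, on all 5 scalings except that Uba7 with LPS was called on 4. Of all genes 4.12% were called higher with LPS and 6.00% lower when curcumin was added to it. Usp18, which removes the modifier Isg15 and dampens interferon signalling, measured 2.17, -0.73 and -0.48 in LPS+curcumin cells, 5.20, 4.82 and 5.20 in LPS cells, -0.57, -0.97 and -0.72 in curcumin cells, and 0.07, -0.33 and -0.03 in untreated cells. It rose by 5.17 ± 0.59 with LPS and fell by 4.75 ± 0.59 when curcumin was added (adjusted p = 0.000342 and 0.00124). Isg15 rose by 6.79 ± 0.47 and fell by 2.42 ± 0.47 (adjusted p = 1.15e-05 and 0.00774). It was also the 1 gene of these lists called higher in LPS+curcumin than in curcumin cells, by 4.31 ± 0.47 (adjusted p = 0.00299). Of the other enzymes of this system, Uba7 rose by 2.33 ± 0.32 and fell by 2.28 ± 0.32. Ube2l6 rose by 1.52 ± 0.20 and fell by 0.86 ± 0.20, and the adjusted p for both genes ran from 0.000798 to 0.0168. The interaction was called for Ube2l6 (-1.66 ± 0.28, adjusted p = 0.0216), on 3 of the 5 scalings and in 3 of the 12 fits that left out 1 array. Without LPS+curcumin replicate 1 it was called for all 4 genes, beside 1.98% of all genes called lower.

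Among 5 tested interferon and receptor genes, Ifnb1, the type I interferon made by LPS-treated macrophages, rose with LPS (adjusted p = 0.00033) and with curcumin alone (adjusted p = 0.00976, not called on quantile scaling). Its processed signals were 114 to 410 with LPS and 13 to 19 with curcumin alone, against 2 to 7 in untreated cells. It was well above background on only 1 of the 3 untreated arrays, so the size of these rises is uncertain. Ifngr1, a chain of the interferon gamma receptor, fell by 1.47 ± 0.43 with curcumin alone (adjusted p = 0.0289). On the 75th percentile scale limma called 0 of the 5 when curcumin was added to LPS. The median was -1.33, against 0.32 over all genes. Called lower there were 3 without LPS+curcumin replicate 1 (median -1.79), 3 on median scaling (median -2.06) and 1 on spike-in scaling. In those settings 14.7%, 16.2% and 12% of all genes were called lower, with medians of 0.48, -0.41 and -0.39 over all genes.

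**Figure D5:**
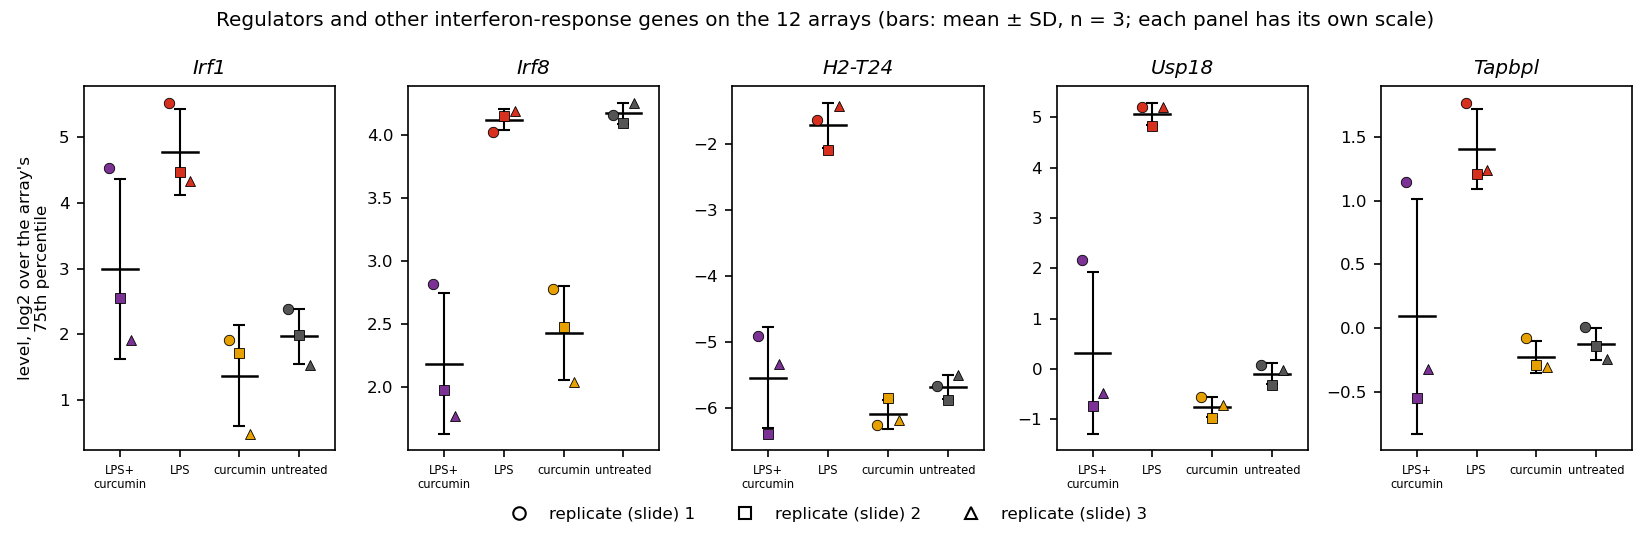
Levels of 2 regulators (Irf1, Irf8) and 3 further genes of the interferon response or of peptide loading (H2-T24, Usp18, Tapbpl) on the 12 arrays, as log2 over the array's 75th percentile, for LPS+curcumin, LPS, curcumin and untreated cells. Bars give mean ± SD (n = 3). Irf8 is low in both curcumin groups, while the other 4 have their highest group mean with LPS alone.

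The mean profile of the members over the 12 arrays, with each gene centred on its own mean, was 0.09, -0.27 and 0.17 in LPS+curcumin cells, 0.78, 0.45 and 0.42 in LPS cells, 0.09, -0.16 and 0.01 in curcumin cells and -0.35, -0.55 and -0.67 in untreated cells. Psmb10 followed it most closely, with a root mean square distance of 0.143, and Tap1 least, with 0.853. Outside the members, the closest of 12650 named genes were Ogfr at 0.102, Ppp2r5b at 0.134, Cd82 at 0.142 and the heavy chain gene H2-T22 at 0.146, followed by Rgl1, Lilra6, Dcp2 and Agpat4 at 0.157 to 0.168. Their likeness is a description over 12 arrays.

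The arrays carried the signal of microglia. Of 15 probed microglia and macrophage markers 13 were detected on all 12 arrays, P2ry12 on 4 and Cx3cr1 on 11. The summed linear level of this list, in multiples of the 75th percentile, ran from 338 to 580 in LPS+curcumin, 275 to 442 in LPS, 392 to 529 in curcumin and 274 to 414 in untreated cells. The astrocyte markers Gfap, Aqp4, Aldh1l1 and Gjb6 were detected on no array, nor were the neuronal markers Map2, Snap25 and Nefl or the lymphocyte markers Cd3d, Cd8a and Ms4a1. Of the astrocyte list 4 of 6 genes were undetected, and its summed level was 0.0204 to 0.0482 in LPS+curcumin, 0.0198 to 0.0332 in LPS, 0.0169 to 0.0268 in curcumin and 0.0157 to 0.0251 in untreated cells. The neuronal list summed to at most 1.08, and the lymphocyte list to at most 0.277, both in LPS+curcumin cells. The oligodendrocyte list, with 3 of 6 genes on all arrays, summed to 1.56 to 2.56 in LPS+curcumin and 1.94 to 2.07 in untreated cells. The endothelial list, with Cdh5 on no array, summed to 1.59 to 5.44 in LPS+curcumin and 4.99 to 5.53 in untreated cells. Fewer cells and less RNA per cell cannot be told apart in such bulk samples.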

How the data were processed

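Per the file headers, the authors extracted spot intensities with Agilent Feature Extraction 10.5.1.1 (the submitters' processing notes name 9.1), which subtracted background and detrended the processed signal. The deposited value table holds the same intensities within 0.397%. Levels are log2 values of the deposited intensities, from which the 75th percentile of the same array (304 to 979 in signal units) was taken away. Spots marked as outliers were left out before a probe's spots were averaged, and the brightest probe stood for a gene. Probes were named through RefSeq accessions (GRCm38.p6), 25097 of 41174 matching a symbol, and tested where well above background on all 3 arrays of a group.

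The 4 group means were estimated over all 12 arrays by the linear model of limma (version 3.58.1, R 4.3.3), with Benjamini-Hochberg adjustment over all 19319 genes and a threshold of 0.05. The scripts were tested on simulated data. Ratio tests used numpy 2.4.6. Alternatives were 4 other scalings, normexp background correction, the value table, no filter, the mean of all probes, slide as a block, and leaving out arrays. Per the labels and headers, replicate number and slide coincide. Arrays of the same number correlated, after removing group means, at -0.018 to 0.712 (18 pairs, median 0.24). Arrays of different numbers and groups correlated at -0.61 to 0.198 (36 pairs, median -0.171). Not every pair of the same number passed 0.1, so the block was kept as an alternative, although each slide held all 4 groups. Calls of members that changed with the block are given with the results.

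Named genes were all members, Psmb5, Psmb6 and Psmb7, up to 4 called genes per list and comparison with the smallest adjusted p, and Nlrc5, Irf1, Psme1, Psme2 and Erap1. One listed gene is not reported here and is left out of its list. The members and lists were chosen with earlier results of these data known.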

Additional observations from a re-analysis of the deposited data

Results flagged for a closer look

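For 3 members, curcumin went with a higher level on every slide without LPS and with a lower level on every slide with LPS. The interaction, which subtracts the curcumin difference without LPS from that with LPS, was -1.20 for Tap2, -1.29 for Tapbp and -1.27 for Psmb9, at limma adjusted p of 0.186, 0.151 and 0.671, so the test of the difference was not passed for any of them. Within slides 1 to 3, curcumin with LPS went with -0.83, -1.15 and -1.07 for Tap2, compared with 0.27, 0.09 and 0.20 without LPS. For Tapbp the values were -0.75, -0.93 and -0.36 with LPS and 0.45, 0.52 and 0.84 without, and for Psmb9 -0.95, -1.10 and -0.30 with LPS and 0.51, 0.29 and 0.68 without. The positive values without LPS depend on the scaling: on spike-in scaling curcumin alone went with -0.90, -0.48 and -0.59 for Tap2, Tapbp and Psmb9, and no opposite sign remained in the group means.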

How the results depend on the processing

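The higher Tap1, Tap2 and Tapbp with LPS and the lower Tap1 and Tap2 in LPS+curcumin than in LPS cells kept their direction under all 24 alternatives, and the cause of the shifts given here was not tested. Members called higher with LPS numbered 1 on median and 0 on spike-in scaling, where 656 and 638 genes were called in all, against 1106 on the 75th percentile. With curcumin alone the members called were 0 on quantile, median and spike-in scaling and without the background filter, 5 with slide as a replicate block and 6 with normexp correction, where 9111 genes were called in all, with 9716 on spike-in scaling and 5624 on the 75th percentile. Members called lower in LPS+curcumin than in LPS cells were 5 on quantile, 5 on median and 4 on spike-in scaling, and 4 with the block, which called 5561 genes against 3616. Between LPS+curcumin and curcumin cells 24 genes were called on median and 20 on spike-in scaling and 68 with the block, against 41. The interaction was called for 2 members with normexp and 2 with the block, and for 89 genes on quantile, 72 on median and 57 on spike-in scaling and 224 with the block, against 139. With exchange within slides, a block on the replicate number, the ratio tests passed for 0 of 6, with adjusted exact p from 0.0625 to 0.7812. Before adjustment 3 of them had the smallest p such an exchange can give, 0.0312.

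The sign of the curcumin difference without LPS turned on quantile scaling for H2-K1 -0.06 (log2), on median scaling for H2-K1 -0.31, H2-D1 -0.17, H2-T23 -0.19, B2m -0.17, Tap2 -0.65, Tapbp -0.23, Psmb8 -0.14, Psmb9 -0.35, Psmb10 -0.26, H2-Q7 -0.17, H2-Q4 -0.16, H2-Q2 -0.18, H2-T22 -0.32, Calr -0.09, Blmh -0.09, Erap1 -0.62, Psme2 -0.15, Pomp -0.03, Psme1 -0.17, Psmb2 -0.08, Psmb5 -0.11, Ube2l6 -0.04, and on spike-in scaling for H2-K1 -0.55, H2-D1 -0.42, H2-T23 -0.44, B2m -0.42, Tap2 -0.90, Tapbp -0.48, Psmb8 -0.38, Psmb9 -0.59, Psmb10 -0.50, H2-Q7 -0.41, H2-Q4 -0.41, H2-Q2 -0.42, H2-T22 -0.56, Calr -0.33, Blmh -0.33, Erap1 -0.87, Psmf1 -0.14, Psme2 -0.39, Pomp -0.28, Psme1 -0.42, Psmb2 -0.32, Psmb6 -0.19, Psmb5 -0.36, Psmb7 -0.23, Ube2l6 -0.29. Between LPS+curcumin and LPS cells it turned on quantile scaling for H2-D1 -0.36, B2m -0.31, Psmb8 -0.28, on median scaling for H2-D1 -0.68, B2m -0.72, Psmb8 -0.70, on spike-in scaling for H2-D1 -0.66, B2m -0.69, Psmb8 -0.67, with normexp for H2-D1 -0.06, B2m -0.04, Psmb8 -0.02, and on the always-detected probes for B2m -0.01. Between LPS+curcumin and curcumin cells it turned with normexp for H2-D1 -0.06, Tap1 0.03, on quantile scaling for B2m 0.00, Psmb10 0.02, Psme2 0.03, on spike-in scaling for B2m 0.06, Tap1 0.08, Psmb10 0.08, Psme1 0.00, Psme2 0.11, on median scaling for Erap1 -0.04, and on the always-detected probes for Psme2 0.02.

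Leaving out 1 array, or all 4 arrays of a replicate number, gave 0 to 7 members and 196 to 1813 genes called with LPS, and 0 to 7 members and 21 to 9691 genes with curcumin alone, where Tap1 ranged from -0.18 to 0.12. Between LPS+curcumin and LPS cells it gave 0 to 3 members lower and 0 to 10779 genes, the 0 without replicate 2 of all groups. There H2-K1 ranged from -0.37 to 0.07, H2-D1 from -0.09 to 0.25, H2-T23 from -0.20 to 0.04, B2m from -0.25 to 0.26, Psmb8 from -0.30 to 0.29, Erap1 from -0.44 to 0.00, Psme1 from -0.47 to 0.10 and Psme2 from -0.41 to 0.07. Between LPS+curcumin and curcumin cells 4 to 206 genes were called. B2m ranged from -0.35 to 0.17, Tap1 from -0.58 to 0.27, Tap2 from -0.16 to 0.24, Psmb9 from -0.51 to 0.01, Psmb10 from -0.22 to 0.06, Erap1 from -0.22 to 0.17, Psme1 from -0.32 to 0.02 and Psme2 from -0.22 to 0.09. The interaction gave 0 to 2 members and 0 to 429 genes. The LPS effect ranged from -0.01 to 0.08 for Psmb8 to Psmb5, from 0.00 to 0.27 for Psmb9 to Psmb6 and from 0.41 to 0.64 for Psmb10 to Psmb7. The curcumin effect ranged from -0.27 to -0.19 for Psmb8 to Psmb5, from -0.99 to -0.71 for Psmb9 to Psmb6 and from -0.76 to -0.53 for Psmb10 to Psmb7.

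The normexp setting was chosen after seeing the data. With all spots, 3 spots of high local background raised the 1st percentile of curcumin replicate 1 to 2705, against 55 without the marked spots. It used the median spot signal. All member probes were well above background. The number of arrays limits the precision.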
